A study of Homo sapiens with 6 samples.

Results

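A set of 9 long noncoding RNAs (lncRNAs) known from hypoxia or from growth control were followed in A2780 cells, a human ovarian cancer line, that had been exposed to the protein CRMP2. The 9 genes were taken by exact symbol from the 44591 genes of the deposited count tables: MIR210HG, NEAT1, MALAT1, H19, HOTAIR, GAS5, SNHG1, SNHG12 and DANCR. All 9 passed the low-count filter, as did 16222 genes in total. CRMP2 (collapsin response mediator protein-2) is a cytosolic, microtubule-associated protein that the study took up for its release by stromal fibroblasts, and the recombinant human form (r-CRMP2) was supplied in the medium at 40 ng/ml for 48 h. The 3 r-CRMP2 libraries were compared with 3 libraries of untreated cells harvested at 48 h. All cells were wild type and grew in DMEM with serum, in a CO2 incubator, and no label names hypoxic culture. The labels do not say whether the replicates were separate cultures, so the p-values measure the spread between these libraries, which may be technical. The study had asked which pathways r-CRMP2 moves in the cancer cells, among them HIF-1α signaling.

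lncRNAs are transcripts without a protein product that act as RNA, in the nucleus or the cytoplasm, or by the act of their own transcription. Under low oxygen, HIF-1α is stabilized and switches on genes that include the host transcript of miR-210, and NEAT1, the scaffold of nuclear paraspeckles, is a further hypoxia-induced transcript. Growth control enters through another route for the snoRNA host genes GAS5, SNHG1, SNHG12 and DANCR: their introns carry small nucleolar RNAs (snoRNAs) for ribosome production, and spliced GAS5 is a classical 5′ terminal oligopyrimidine (5′ TOP) transcript whose stability depends on translation and on nonsense-mediated decay.

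The reference sequences below are those in which the features of these 2 groups of genes, HIF binding letters and an initial pyrimidine run, were looked for. They were copied from RefSeq tables of build GRCh38.p14, in which 7 of the 9 genes had a promoter entry. The first sequence is the MIR210HG promoter, from 250 bases before to 50 bases after the start, at chr11:568408-568707 on the minus strand. Capitals mark ACGTG and GCGTG, the core letters of the hypoxia response element that HIF binds, searched on both strands.
MIR210HG promoter: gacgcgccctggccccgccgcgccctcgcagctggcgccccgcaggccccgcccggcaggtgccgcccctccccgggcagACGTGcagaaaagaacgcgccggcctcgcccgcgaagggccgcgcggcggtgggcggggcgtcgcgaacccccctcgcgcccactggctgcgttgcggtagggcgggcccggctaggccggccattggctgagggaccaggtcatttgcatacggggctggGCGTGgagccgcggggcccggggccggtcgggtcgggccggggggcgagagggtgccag
ACGTG began at -170 and GCGTG at -9 from the start. ACGTG was present in 21.4% and GCGTG in 36.5% of the 35116 promoters in the table, and 48.4% held at least 1 of them, so their presence is common. Of the other promoters searched, those of MALAT1, SNHG1, SNHG12 and DANCR held GCGTG but not ACGTG.

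The next sequences are the first 50 transcribed bases of the 4 snoRNA host genes, shown because the 5′ TOP class is defined by pyrimidines at the very start of the RNA. Capitals mark the longest run of C and T.
GAS5: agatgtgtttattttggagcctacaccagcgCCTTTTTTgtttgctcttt
SNHG1: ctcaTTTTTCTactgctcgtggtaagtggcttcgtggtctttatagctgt
SNHG12: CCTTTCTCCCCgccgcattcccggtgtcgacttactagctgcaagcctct
DANCR: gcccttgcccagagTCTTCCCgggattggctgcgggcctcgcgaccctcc
SNHG12 had 11 pyrimidines from its first base. In the other 3 the longest run lay further inside, at bases 32 to 39 in GAS5, 5 to 11 in SNHG1 and 15 to 21 in DANCR. A run of at least 7 within the first 50 bases was found in 26.7% of all promoters, with a median longest run of 5. These are the annotated starts, which may differ from the starts used in A2780 cells.

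The third set is the mature microRNAs carried by 2 of the lncRNAs, with the seed (bases 2 to 8) in capitals.
hsa-miR-210-3p: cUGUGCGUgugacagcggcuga
hsa-miR-210-5p: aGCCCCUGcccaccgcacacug
hsa-miR-675-5p: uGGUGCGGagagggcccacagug
hsa-miR-675-3p: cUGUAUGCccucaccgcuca
The 4 seeds differ from one another. miR-210 lies in MIR210HG (the 3p arm at chr11:568112-568133) and miR-675 in the first exon of H19 (the 5p arm at chr11:1996800-1996822). Poly(A)-selected libraries do not measure mature microRNAs, so the sequences identify what these hosts carry and not what was counted.

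Between 21888530 and 25711353 reads were counted per library, and the 9 lncRNAs together took 0.329 to 0.476% of them in untreated cells and 0.651 to 0.696% with r-CRMP2. Values below are CPM (reads of a gene per 1e6 reads counted) scaled by TMM, a method that sets the library scale on the bulk of the genes, unless TPM (the same share after correction for gene length) is named. The deposited build is hg19, and gene positions below are in that build. The labelled cell type was checked against 10 ovarian epithelial markers, whose summed level was 3417 to 3533 CPM in untreated cells and 3537 to 3824 CPM with r-CRMP2. CDH1 and WT1 averaged fewer than 10 counts, whereas KRT7 and KRT18 were abundant. Of 9 endothelial and leukocyte markers, 6 (CD14, CD3E, CD79A, KDR, PTPRC and VWF) averaged fewer than 10 counts, and the summed level was 28.8 to 32.9 CPM in untreated cells and 74.1 to 80.0 CPM with r-CRMP2, mostly CD68, a lysosomal protein. Of 11 fibroblast markers, 1 (FAP) averaged fewer than 10 counts, so most were detected. Their summed level was 613 to 686 CPM in untreated cells and 538 to 562 CPM with r-CRMP2. The share of mitochondrial genes was 6.19 to 6.59% in untreated cells and 3.76 to 4.10% with r-CRMP2. One library, r-CRMP2 replicate 3, had a count in 22438 genes, against 25152 to 26302 in the others. The part of these shifts in the results below was not tested, and since the RNA was bulk, fewer cells expressing a gene and less RNA per cell cannot be told apart.

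Of the 9 lncRNAs, 6 were higher with r-CRMP2 (NEAT1, MALAT1, H19, GAS5, SNHG1 and SNHG12), 2 were lower (HOTAIR and DANCR), and MIR210HG did not pass the test (edgeR quasi-likelihood test, Benjamini-Hochberg adjusted p under 0.05). The count was the same, 6 higher and 2 lower, without r-CRMP2 replicate 3, and was 5 higher and 3 lower with library size alone. Over all genes tested, 58.4% were called, 28.2% higher and 30.1% lower, so a call alone does not set a gene apart. A log2 fold change beyond 1 was also reached by NEAT1, MALAT1, SNHG1 and H19 upward, where 5.11% of all genes did so, and by HOTAIR downward, where 8.86% did. When tested against a log2 fold change of 1 instead of 0, NEAT1 alone of the 9 passed. The median log2 fold change of the 9 was 0.72, beside -0.03 over all genes. CPM ranges of the groups did not overlap for 8 of the 9 lncRNAs, and likewise for 64.2% of all genes tested.

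**Figure D1:**
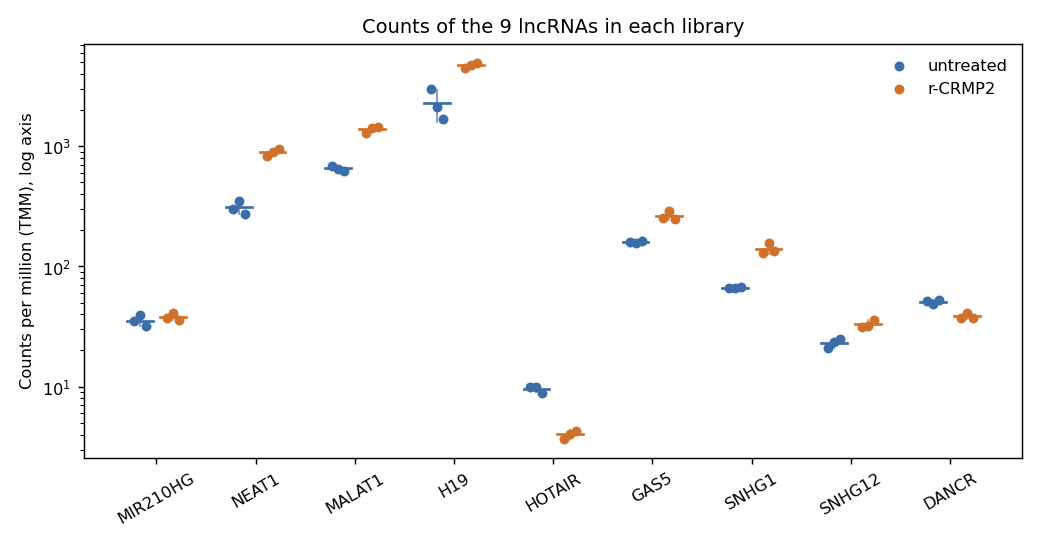
CPM (TMM-scaled, log axis) of the 9 lncRNAs in 3 untreated (blue) and 3 r-CRMP2 (orange) libraries; horizontal lines are group means and vertical lines 1 SD. The groups overlap for MIR210HG alone, and the untreated H19 values spread from 1690 to 3011 CPM.

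MIR210HG (chromosome 11, 565657 to 568457, minus strand) is the transcript from which miR-210, the best known hypoxia-induced microRNA, is cut. Its level was 35.3, 39.1 and 31.8 CPM in untreated replicates 1 to 3. With r-CRMP2 it was 37.5, 40.7 and 35.8 CPM. The ranges overlapped, with a log2 fold change of 0.10 (SE 0.10) and an adjusted p of 0.312 in edgeR. Here and below, the SE comes from the spread of log2 CPM within each group and not from the edgeR fit. On the deposited TPM scale, MIR210HG stood at 33.8 to 41.9 TPM in untreated cells and at 30.5 to 33.0 TPM with r-CRMP2, so that the groups did not overlap and the treated one was lower. With library size as the only scaling, the log2 fold change was -0.21 with an edgeR adjusted p of 0.0389. The direction of MIR210HG therefore depends on the scaling, and no rise was detected under either.

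The row of the miR-210 hairpin, inside MIR210HG, held 21, 69 and 37 counts in untreated cells and 38, 44 and 43 counts with r-CRMP2. Its log2 fold change of 0.27 (SE 0.53, edgeR adjusted p = 0.528) did not pass the test. Without untreated replicate 2, the library with 69 counts, it was 0.89 and passed (adjusted p = 0.0271), and without untreated replicate 1 it was -0.079. The next tested genes on either side were higher: RASSF7, 1632 bases away, by 0.58 and LOC143666, 5351 bases away, by 0.39 on the log2 scale. The call of LOC143666 was lost with library size alone (0.079), and also without untreated replicate 2 or 3 or r-CRMP2 replicate 3. HIF1A, which encodes the oxygen-regulated subunit of HIF-1, rose from 140 to 157 CPM to 200 to 215 CPM, a log2 fold change of 0.49 (SE 0.06, edgeR adjusted p = 4.15e-07).

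Of the oxygen-sensing machinery, HIF1A included, 5 of 9 genes tested were higher and 4 lower (4 and 4 with library size alone). EPAS1, which encodes HIF-2α, rose by 1.08, and EGLN3 and EGLN1, prolyl hydroxylases that mark HIF for degradation and are themselves hypoxia-inducible, rose by 1.24 and 0.65 on the log2 scale. HIF1AN, the asparagine hydroxylase that blocks HIF activity, fell by 0.79, EGLN2 fell by 0.56 and ARNT2, a dimerization partner, fell by 0.30. The ARNT2 call was lost without untreated replicate 1 (-0.13, edgeR adjusted p = 0.246) or replicate 2 (adjusted p = 0.0591). It was also lost without any 1 of the r-CRMP2 libraries (edgeR adjusted p 0.0740 to 0.261). Of 13 tested mRNAs known as miR-210 targets, 5 were higher, 3 lower and 5 not called, with a median log2 fold change of 0.03 (5 higher and 7 lower with library size alone). EFNA3, an ephrin ligand, rose by 1.75, NPTX1 by 1.45 and BNIP3, a HIF-induced mitophagy receptor, by 0.93. E2F3 fell by 0.67, GPD1L by 0.36 and ACVR1B by 0.28.

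NEAT1 (chromosome 11, 65190269 to 65213011, plus strand) builds the paraspeckle, a nuclear body that holds back RNAs and RNA-binding proteins, and showed the largest change of the 9. It measured 302, 350 and 276 CPM in untreated cells. With r-CRMP2 it measured 831, 903 and 954 CPM. Every treated value lay well above every untreated one, and the rise was 2.90-fold (log2 1.53, SE 0.12, edgeR adjusted p = 1.06e-12). Leaving out single libraries gave log2 values of 1.46 to 1.63, and library size alone gave 1.22. NEAT1 is listed as 1 gene of 22743 bases, so its short polyadenylated isoform and the long isoform that forms the paraspeckle were not separated, and poly(A) selection favors the short one.

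The genes of its protein partners were not raised as a group. Of 16 paraspeckle protein genes, 4 were higher and 7 lower, with a median log2 fold change of -0.04 (1 higher and 12 lower with library size alone). SFPQ, an essential paraspeckle protein, decreased from 245 ± 29.2 to 79.1 ± 6.77 CPM (SD, n = 3 each; log2 fold change -1.63, edgeR adjusted p = 2.52e-12). CPSF6 fell by 0.96 on the log2 scale. HNRNPH3 rose by 0.49, and HNRNPK, which affects the choice of the NEAT1 isoform, and NONO, the partner of SFPQ, each by 0.39, which with library size alone was 0.080 and 0.077 and not called.

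MALAT1 (chromosome 11, 65265209 to 65273987, plus strand), a nuclear speckle RNA named for metastasis in lung cancer, is the next tested gene downstream of NEAT1, 52198 bases away. It measured 690, 650 and 621 CPM in untreated cells. The r-CRMP2 libraries gave 1289.9, 1428 and 1436 CPM. The groups were well separated, and MALAT1 rose 2.12-fold (log2 1.08, SE 0.07, edgeR adjusted p = 4.15e-12), or by 0.77 on the log2 scale with library size alone. The ratio of MALAT1 to NEAT1 in TPM was 4.80 to 5.91 in untreated cells and 3.90 to 4.10 with r-CRMP2, without overlap between the groups. FRMD8, the tested gene before NEAT1, fell by 0.31 on the log2 scale.

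TALAM1, the natural antisense RNA of MALAT1, was counted over 7205 shared bases. Its count was 91.2 to 93.6% of that of MALAT1 in every library, and its log2 fold change was also 1.08. The library kit does not mark strand, so reads of MALAT1 and TALAM1 cannot be told apart here, and the TALAM1 value is not a separate measurement. mascRNA, the small RNA cut from the MALAT1 end, and MIR612 within NEAT1 had a count of 0 in all 6 libraries.

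H19 (chromosome 11, 2016406 to 2022696, minus strand), the imprinted lncRNA of the fetal growth locus, was the most abundant of the 9 and the most variable. In untreated replicates 1 to 3 it measured 3011, 2116 and 1690 CPM. The r-CRMP2 libraries reached 4465, 4786 and 4903 CPM. The untreated libraries differed among themselves by more than the treated ones, yet the highest of them stayed below the lowest treated library. The rise was 2.08-fold (log2 1.05, SE 0.25, edgeR adjusted p = 0.0124). The call was lost without r-CRMP2 replicate 1 (adjusted p = 0.0534) or replicate 2 (adjusted p = 0.0631), whereas the log2 fold change stayed at 1.11 and 1.05. Leaving out an untreated library moved it from 0.88 (without replicate 3) to 1.31 (without replicate 1).

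HOTS, a gene that overlaps the 3′ end of H19 on the opposite strand over 1119 bases, had 34.7 to 38.1% of the H19 count in each library and a log2 fold change of 1.06 (edgeR adjusted p = 0.0239), a call that was lost without any 1 of the r-CRMP2 libraries (adjusted p 0.0640 to 0.0786). Their reads cannot be told apart without strand. MIR675, the hairpin within H19, had a count of 0 in all libraries. IGF2, the reciprocally imprinted growth factor gene next to H19, was at a low level: it held 18, 14 and 10 counts in untreated cells and 16, 16 and 18 counts with r-CRMP2, and was not called (log2 0.56, SE 0.21, edgeR adjusted p = 0.228). In TPM, H19 exceeded IGF2 by 9169 to 15465 times. INS-IGF2, which shares exons with IGF2, gave 0.51 and was not called either.

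On the other side of H19, MRPL23-AS1 rose from 67, 73 and 96 counts to 168, 120 and 192 counts (log2 1.33, SE 0.21), and LINC01219, which overlaps HOTS, from 4 to 13 counts to 21 to 44 counts (log2 2.16, SE 0.44). In a list of 14 tested genes tied to the H19 and IGF2 domain, 6 were higher and 2 lower (4 and 4 with library size alone). CDKN1C, an imprinted inhibitor of the cell cycle from the neighboring cluster, rose from 72.8 ± 2.41 to 183 ± 30.8 CPM (log2 1.33), and PHLDA2, imprinted in the same cluster, rose by 0.79. IGF2BP3 and IGF2BP1, RNA-binding proteins of IGF2 mRNA, fell by 0.89 and 0.35 on the log2 scale.

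HOTAIR (chromosome 12, 54356092 to 54368740, minus strand) is transcribed from the HOXC cluster and is known for binding the chromatin repressors PRC2 and LSD1. It was the least abundant of the 9. In untreated cells it held 278, 246 and 244 counts, or 10.0, 10.0 and 8.92 CPM. With r-CRMP2 it held 78, 80 and 99 counts, or 3.65, 4.04 and 4.31 CPM. No library of 1 group reached the other, and the level with r-CRMP2 was 0.416 of the untreated level (log2 -1.27, SE 0.09, edgeR adjusted p = 5.14e-08). Under all settings HOTAIR stayed lower, with -1.58 for library size alone.

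HOXC11, a homeobox gene on the opposite strand, shares 1831 bases with HOTAIR. It held 99, 150 and 104 counts in untreated cells and 62, 76 and 66 counts with r-CRMP2, which was just short of a call (log2 -0.48, SE 0.28, edgeR adjusted p = 0.0514). Other settings called HOXC11 lower, among them library size alone (-0.80, adjusted p = 0.0029) and leaving out untreated replicate 1 (-0.63, adjusted p = 0.0219). Relative to HOTAIR, its count was 35.6 to 61.0% in untreated cells and 66.7 to 95% with r-CRMP2, so the pair did not move in a fixed ratio as MALAT1 and TALAM1 did. Without strand, reads within the shared bases cannot be assigned to HOTAIR or HOXC11. Either count may therefore hold reads of the other gene, and how many was not tested. The flanking HOXC13 (log2 -0.08) and HOXC-AS3 (log2 0.30, on about 10 counts per library) were not called under TMM, and HOXC13 was called lower with library size alone (-0.38, adjusted p = 0.0112). Of 16 genes of PRC2, LSD1 and the CoREST complex, 12 were higher and 1 lower, with a median of 0.22, and the split turned to 3 higher and 4 lower with library size alone. PHF1 rose by 0.76, EZH1, a catalytic PRC2 subunit, by 0.75, and RCOR1, a CoREST scaffold, by 0.67, whereas SUZ12, a core PRC2 subunit, fell by 0.31.

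The snoRNA host genes did not share 1 response. GAS5 (chromosome 1, 173833039 to 173837125, minus strand), whose name records its accumulation on growth arrest, measured 158, 158 and 164 CPM in untreated cells. With r-CRMP2 it measured 251, 287 and 251 CPM. All treated values exceeded all untreated ones, with a 1.64-fold rise (log2 0.72, SE 0.07, edgeR adjusted p = 1.79e-09). ZBTB37, only 95 bases from the GAS5 start, was not called (log2 -0.20, SE 0.45).

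SNHG1 (chromosome 11, 62619460 to 62623360, minus strand) measured 66.5, 66.1 and 67.6 CPM in untreated cells. In the r-CRMP2 libraries it stood at 130, 156 and 134 CPM. The untreated values were nearly identical, and SNHG1 rose 2.09-fold (log2 1.06, SE 0.08, edgeR adjusted p = 8.27e-12). Without r-CRMP2 replicate 2, the highest library, the log2 fold change was 0.99. SLC3A2, the amino acid transporter chain CD98 that starts 124 bases from SNHG1 in the other direction, rose by 0.67, and WDR74, on the far side, was not called under TMM (log2 -0.14) but was lower with library size alone (-0.45).

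SNHG12 (chromosome 1, 28905050 to 28908366, minus strand) measured 21.0, 23.5 and 24.7 CPM in untreated cells. With r-CRMP2 it measured 31.3, 31.9 and 36.1 CPM. The gap between the groups was small, and the rise was 1.44-fold (log2 0.52, SE 0.09, edgeR adjusted p = 1.83e-05). With library size alone it was 0.21 and was just above the threshold of 0.05, and in TPM the groups overlapped. TRNAU1AP, which overlaps SNHG12 by 8 bases, gave 0.09 and was not called. The nearest tested genes on either side were lower: RCC1 fell by 0.39, and RAB42, 10346 bases away, decreased from 410, 411 and 491 counts to 106, 77 and 129 counts (log2 -1.76, SE 0.17).

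DANCR (chromosome 4, 53578561 to 53586864, plus strand), known for keeping progenitor cells undifferentiated, moved the other way. It measured 51.3, 48.6 and 52.4 CPM in untreated cells. The r-CRMP2 libraries gave 37.0, 40.7 and 37.6 CPM. The groups did not overlap, and the log2 fold change was -0.40 (SE 0.05, edgeR adjusted p = 4.99e-05), or -0.71 with library size alone. The ratio of GAS5 to DANCR in TPM, which does not depend on library scaling, was 8.72 to 9.20 in untreated cells and 18.8 to 19.9 with r-CRMP2. The flanking USP46 (log2 -0.06) and SCFD2 (log2 -0.19) were not called under TMM, and both were called lower with library size alone (-0.37 and -0.51).

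**Figure D2:**
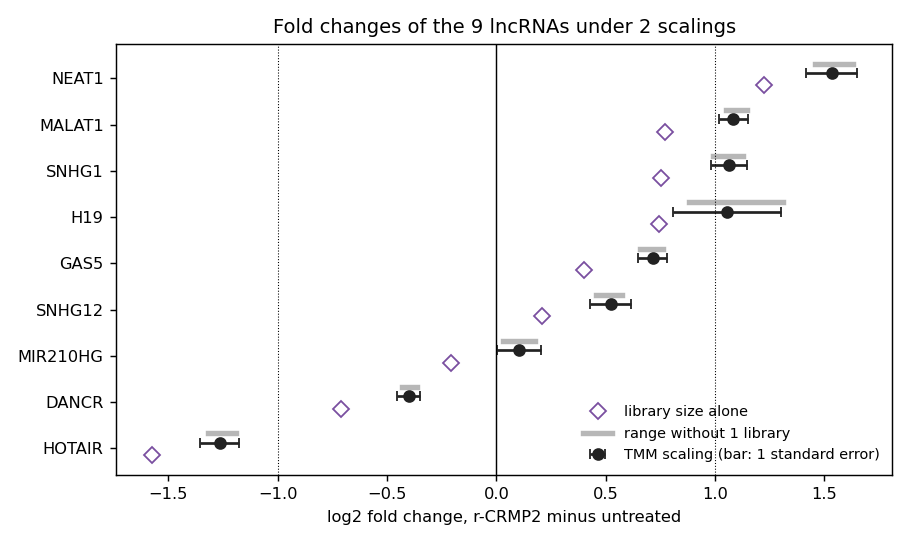
Log2 fold changes of the 9 lncRNAs (r-CRMP2 minus untreated) with TMM scaling (black, bar 1 standard error), with library size alone (diamonds) and the range when any 1 library was left out (grey). MIR210HG changes sign between the scalings (0.10 and -0.21) while NEAT1 stays above 1 in both, and dotted lines mark log2 values of -1 and 1.

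The change of scale applied to all genes. TMM factors were 1.10 to 1.12 in untreated and 0.878 to 0.922 in r-CRMP2 libraries, and without them the median log2 fold change over all genes was -0.34 in place of -0.03. The share of calls that were higher then fell from 48.4% (4582 higher, 4884 lower) to 20.5% (2184 higher, 8460 lower).

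Other snoRNA host genes, listed beside the 4 described, were mostly higher: of 18 tested, 11 were higher and 2 lower, with a median log2 fold change of 0.36. Without LINC-PINT, whose name gives no snoRNA and which was set aside after its value was seen, the count was 10 higher and 2 lower of 17, with a median of 0.33. EPB41L4A-AS1 rose from 27.3 ± 2.67 to 57.1 ± 2.94 CPM (log2 1.06) and ZFAS1, a ribosome-associated host RNA, from 118 ± 1.72 to 217 ± 22.2 CPM (log2 0.88). SNHG11 fell by 1.07 and SNHG4 by 0.40, so DANCR was not the single host gene to fall. With library size alone, the 18 genes split into 7 higher and 6 lower, with a median of 0.04.

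**Figure D3:**
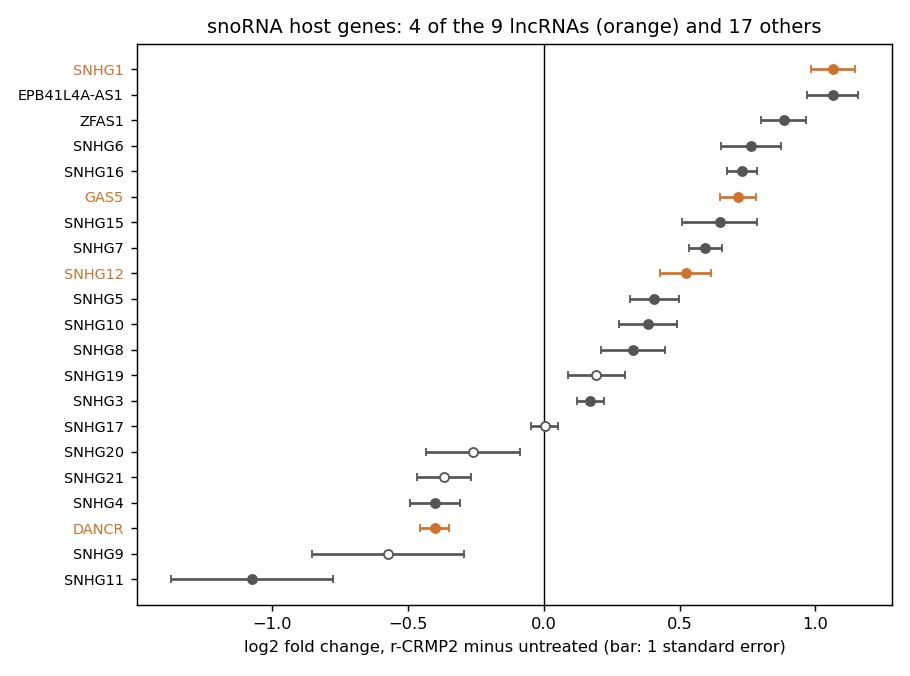
Log2 fold changes (r-CRMP2 minus untreated, TMM scaling, bars 1 standard error) of 21 tested snoRNA host genes, with GAS5, SNHG1, SNHG12 and DANCR in orange; open points did not pass the test. SNHG1 (1.06) and EPB41L4A-AS1 (1.06) lie at the top and SNHG11 (-1.07) at the bottom.

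Within the intervals of the 4 host genes lie 24 snoRNA rows: 11 in GAS5, 8 in SNHG1, 4 in SNHG12 and 1 in DANCR. Of these, 15 had enough counts to be tested and 10 were higher. With library size alone 5 were higher, and SNORD31, SNORD22, SNORD26, SNORD74 and SNORD99 were no longer called. None was lower in edgeR, with 0 lower at an unadjusted p under 0.05 and 0 in DESeq2, which also gave 10 higher. All 5 tested rows in SNHG1 were higher under TMM. SNORD28 went from 31, 34 and 26 counts to 92, 110 and 145 counts (log2 2.23, SE 0.22, edgeR adjusted p = 6.44e-09). SNORD25 went from 101, 102 and 96 counts to 243, 248 and 256 counts (log2 1.63, SE 0.09). SNORD31, SNORD22 and SNORD26, box C/D snoRNAs, rose by 0.58, 0.80 and 1.13. Without r-CRMP2 replicate 2, SNORD22 (edgeR adjusted p = 0.0578) and SNORD26 (edgeR adjusted p = 0.132) lost their call. SNORD26 also lost it without untreated replicate 3 (edgeR adjusted p = 0.0769).

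In GAS5, SNORD80 rose by 1.17 (72, 80 and 103 counts to 114, 150 and 201 counts), SNORD74 by 0.72 and SNORD76, on 8 counts per library, by 1.72, while SNORD44 (log2 0.35) and SNORD78 (log2 -0.19) were not called. In SNHG12, SNORA61 and SNORD99 each rose by 0.94, and SNORA16A (log2 0.25) and SNORA44 (log2 -0.06) were not called. The SNORD99 call was lost without untreated replicate 2 or 3 and without r-CRMP2 replicate 2 or 3 (edgeR adjusted p 0.0636 to 0.180). SNORA26 in DANCR gave -0.47 (SE 0.53) and was not called. Summed over each host, snoRNA rows went from 12.8 ± 0.335 to 29.6 ± 2.89 CPM in SNHG1 and from 7.34 ± 0.913 to 13.3 ± 2.15 CPM in GAS5 (SD, n = 3 each). The hosts rose as well. As a share of the SNHG1 count, the sum was 18.6 to 19.6% in untreated cells and 20.6 to 22.2% with r-CRMP2. In GAS5 the shares overlapped, at 4.13 to 5.10% in untreated cells and 4.33 to 5.79% with r-CRMP2. Intronic snoRNAs are not polyadenylated, and whether these counts came from the processed snoRNAs, from unspliced host RNA or from retained introns was not tested.

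**Figure D4:**
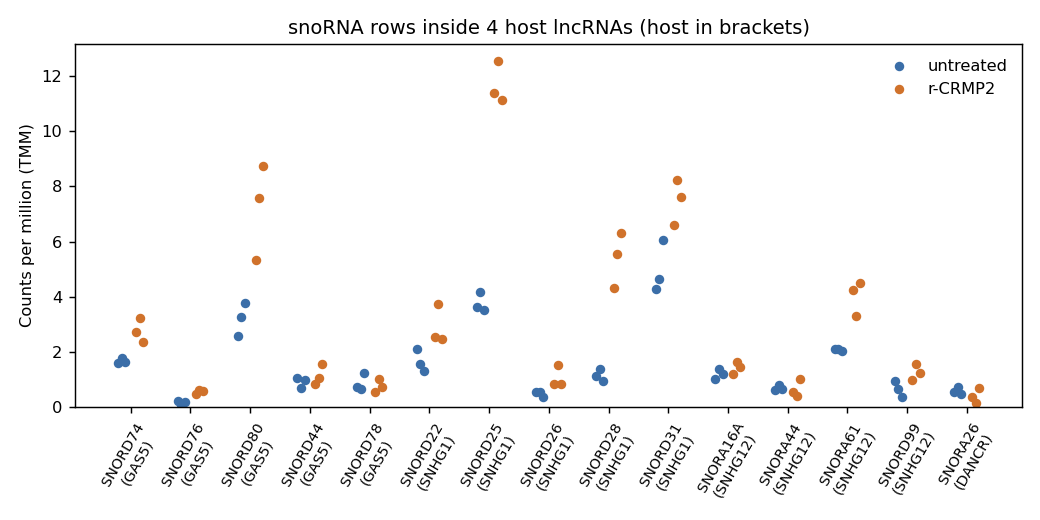
CPM (TMM-scaled, linear axis) of the 15 tested snoRNA rows inside GAS5, SNHG1, SNHG12 and DANCR, with 3 untreated (blue) and 3 r-CRMP2 (orange) libraries each. SNORD25 and SNORD28 in SNHG1 separate most clearly, and the groups overlap for SNORD44, SNORD78, SNORA16A, SNORA44 and SNORA26.

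Over all 97 snoRNA rows tested in the tables, 45 were higher and 0 lower in edgeR, with a median log2 fold change of 0.73. One row was lower at an unadjusted p under 0.05, DESeq2 gave 42 higher and 0 lower, and library size alone gave 34 higher and 3 lower. The rows inside the host lncRNAs are part of this class, which rested on a median of 19.8 counts per library. The genes of the snoRNP core proteins did not move together: 3 of 16 were higher and 4 lower (2 and 12 with library size alone). FBL, the methyltransferase of box C/D particles, rose by 0.61, SNU13 by 0.48 and DKC1, the pseudouridine synthase, by 0.22 (-0.09 with library size alone), while NOP56 fell by 0.66, NOP58 by 0.45 and ZNHIT6 by 0.37.

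Known 5′ TOP mRNAs were also examined, although an initial pyrimidine run was not seen at the annotated GAS5 start printed above. Outside the ribosomal proteins, 18 of 18 listed genes tested were higher in edgeR, beside 28.2% of all genes tested. Their log2 fold changes were 0.43 to 0.73, with a median of 0.52. They rested on a median of 17070 counts per library, so small changes could be called. None of the 18 was lower, with 0 at an unadjusted p under 0.05 and 0 in DESeq2. With library size alone 17 were higher and the median was 0.21. Under TMM, GAS5 gave 0.72 and SNHG12 0.52, whereas SNHG1 gave 1.06 and DANCR -0.40, outside the range of 0.43 to 0.73. With library size alone, GAS5 gave 0.40, SNHG12 0.21, SNHG1 0.75 and DANCR -0.71. EEF1A1, the elongation factor that delivers tRNAs, rose by 0.73, TPT1 by 0.68 and EIF4B by 0.66. Genes of nonsense-mediated decay, which removes GAS5 and SNHG RNAs when they are translated, gave 8 higher and 3 lower of 16, which turned to 2 higher and 8 lower with library size alone. EIF4A3, of the exon junction complex, rose by 0.53 and SMG9 by 0.38. MAGOHB fell by 0.87, SMG8 by 0.77 and UPF2 by 0.32.

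Levels can be compared between genes per length, in TPM, as far as the listed lengths match the RNA that was sequenced. NEAT1 was divided by its listed 22743 bases, although poly(A) selection favors its short isoform. Its place in the order below and the size of its ratio to MALAT1 therefore depend on that length. In untreated cells the order was H19 (2127 ± 602), GAS5 (617 ± 16.2), MALAT1 (181 ± 7.74), SNHG1 (146 ± 2.71), SNHG12 (76.1 ± 7.15), DANCR (69.3 ± 2.34), MIR210HG (37.5 ± 4.10), NEAT1 (33.2 ± 4.34) and HOTAIR (9.11 ± 0.586 TPM; SD, n = 3 each). SNHG12 and DANCR overlapped, as did MIR210HG and NEAT1. With r-CRMP2, NEAT1 (76.5 ± 4.99 TPM) stood above DANCR (41.8 ± 0.401 TPM) and MIR210HG (32 ± 1.31 TPM) without overlap, and now overlapped SNHG12 (87.1 ± 8.03 TPM). The first 4 places and the last were unchanged.

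All 9 genes carry the gene type lncRNA in the tables. The other 1023 tested genes of that type included 166 higher and 347 lower, with a median log2 fold change of -0.25. Genes named LINC and a number had 22 higher and 76 lower of 168 and a median of -0.57. The 17 tested genes named SNHG had 10 higher and 2 lower, and the 17 named as microRNA hosts (MIR and HG) had 4 higher and 7 lower. With library size alone these splits were 9 and 99 (LINC), 5 and 6 (SNHG) and 3 and 10 (microRNA hosts), and all 1032 lncRNA-type genes, the 9 included, gave 104 higher and 510 lower. As a share of reads, lncRNA-type genes took 1.55 to 1.69% of the counts in untreated cells and 1.80 to 1.83% with r-CRMP2, whereas without the 9 they took 1.22 to 1.25% and 1.14 to 1.15%. The 9 genes made up 21.2 to 28.1% of all lncRNA-type counts in untreated cells and 36.2 to 38.0% with r-CRMP2, with H19 alone at 12.2 to 19.5% and 22.8 to 23.9%.

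**Figure D5:**
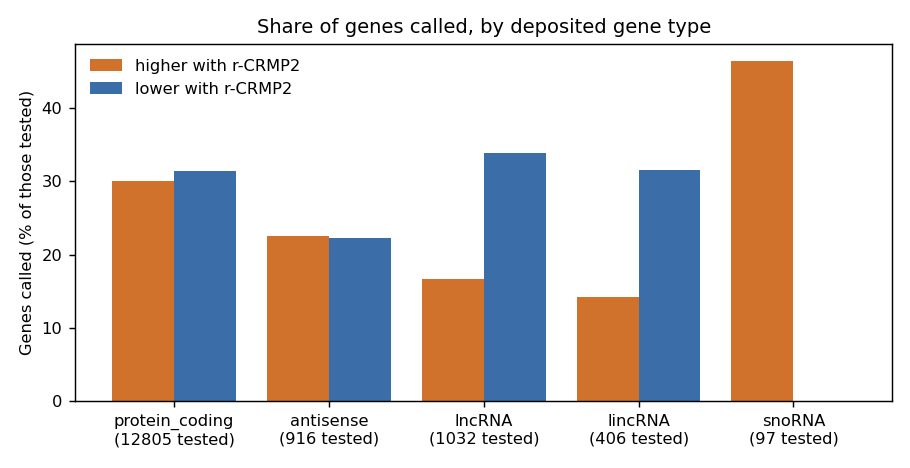
Percentage of tested genes called higher (orange) or lower (blue) with r-CRMP2 by the gene type given in the tables (edgeR, adjusted p under 0.05). lncRNA genes were called lower (33.8%) more often than higher (16.7%), protein-coding genes about equally (30.1% higher, 31.3% lower), and of 97 snoRNA rows 46.4% were higher and none lower.

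Further lncRNAs with a link to hypoxia or growth were divided. Of 15 tested hypoxia-linked ones, 6 were higher and 3 lower, with a median log2 fold change of -0.04 (6 higher and 8 lower with library size alone). KCNQ1OT1, an imprinted antisense RNA, rose by 1.70, FAM13A-AS1 by 1.32 and CYTOR by 0.96, whereas LINC00473, a cAMP-responsive lncRNA, fell from 212 ± 12.7 to 98.3 ± 5.99 CPM (log2 -1.11), MIR31HG by 0.89 and CDKN2B-AS1 by 0.40 on the log2 scale. Of 30 tested growth-linked ones, 7 were higher and 8 lower, with a median of -0.02 (4 higher and 12 lower with library size alone). CYTOR, RPPH1 (the RNA of RNase P, by 0.84) and PVT1, the neighbor of MYC (by 0.62), were among those that rose. MIR22HG fell by 2.08, TINCR by 1.02 and FENDRR by 0.86. UCA1, CYTOR, MEG3, PVT1 and TUG1 stand in both lists.

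The genes most like each strongly changed lncRNA across the 6 libraries were sought by Pearson correlation of log2 CPM among 12725 tested genes. They were RSBN1, FOXJ2 and PLTP for NEAT1 (r = 0.999 each), FGFR1OP2, SLC2A3 and RELT for MALAT1, and SSR4, SLC16A1 and TOMM20 for SNHG1. For H19 they were ARSK, TEC and its overlapping gene HOTS (r = 0.998), and for HOTAIR they were ING5, LOC171391 and HSD17B1. Because the 6 libraries form 2 groups, between 743 genes (H19) and 2316 genes (MALAT1) had an r above 0.95, and these correlations largely restate the split between the groups.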

How the data were processed

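RNA of 6 A2780 samples was poly(A)-selected, made into libraries with a kit that does not mark strand, and sequenced. According to the submitters' processing notes, FastQC, HISAT2 and DESeq2 were used with build hg19; their versions, the read counter and the annotation are not given in the sources used here. The authors deposited raw read counts and TPM values per gene and sample. Depth was 21888530 to 25711353 counts per library. Counts were fitted with edgeR 4.0.16 in R 4.3.3 (filterByExpr, TMM, robust quasi-likelihood test), which gave the fold changes. Benjamini-Hochberg adjustment ran over 16222 genes, with calls at adjusted p under 0.05. A prior count of 2 was used for log2 CPM, from which the SE and the correlations were computed. TPM served for levels, for ratios between genes and for group ranges, and no test was run on it. Alternatives were DESeq2 1.42.0, other scalings and filters, a replicate block, a test against a log2 fold change of 1, and leaving out each library. On simulated data for this comparison (15957 genes), 61 of 74 genes changed by log2 0.5, 61 of 63 by 1 and 63 of 63 by 2 were recovered, with 12 false calls. The simulation changed few genes, in both directions, without a shift of library scale, whereas 58.4% of the real genes were called. It therefore does not test the scaling.

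The 9 genes and the gene lists were chosen with earlier results of these data known. Genes named were the 9, up to 3 largest rises and falls per list among called genes with a mean count of at least 50, overlapping and flanking genes, HIF1A and IGF2, and the 3 best correlated genes for each strongly changed lncRNA; snoRNA rows were all named where tested. Sequences came from RefSeq (GRCh38.p14), and no coordinate was converted. A few genes that this rule would name are not reported here.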

Additional observations from a re-analysis of the deposited data

How the results depend on the processing

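The direction of 8 of the 9 lncRNAs held under all 13 alternatives. MIR210HG reversed to -0.21 with library size alone, where SNHG12 was 0.21 and just above the threshold of 0.05 and the count past both thresholds upward dropped from 4 to 1. Tested against a log2 fold change of 1, MALAT1 (1.08, adjusted p = 0.412), H19 (1.05), HOTAIR (-1.27, 0.147), GAS5 (0.72), SNHG1 (1.06, 0.636), SNHG12 (0.52) and DANCR (-0.40) lost their call, leaving 1 higher and 0 lower. H19 missed the threshold without the low-count filter (1.04, adjusted p = 0.0559). Without single libraries, H19 ranged from 0.88 to 1.31 and lost its call without r-CRMP2 replicate 1 or 2, and the count past both thresholds upward was 2 without r-CRMP2 replicate 2.

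Of 92 other named genes, 82 never reversed. Over the alternatives they gave 1191 results: 1064 left the call unchanged, 99 lost it, 12 gained one and 16 reversed. The test against a log2 fold change of 1 made up 63 of the 99. CDKN2B-AS1 also lost its call with DESeq2, without untreated replicate 3 and without r-CRMP2 replicate 1. RPPH1 lost it with library size alone and without r-CRMP2 replicate 2. ACVR1B lost it without untreated replicate 2 or r-CRMP2 replicate 3, and SMG9 with library size alone. With library size alone, DKC1 (-0.091), HOXC-AS3 (-0.0072), MIR210 (-0.041), SNORA16A (-0.063) and TRNAU1AP (-0.223) reversed. Without single libraries, genes not called in the reported fit changed sign: HOXC-AS3 (-0.10 to 0.69), HOXC13 (-0.19 to 0.060), MIR210 (-0.079 to 0.89), SNORA44 (-0.50 to 0.19), SNORD78 (-0.41 to 0.16), USP46 (-0.11 to 0.0050) and ZBTB37 (-0.49 to 0.13). The cause was not tested.

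The replicate numbers did not pair the libraries (correlations of same-numbered deviations of -0.0209, 0.0038 and -0.0252). With a replicate block, 9391 genes were called against 9466, 9250 of them shared, H19 was 1.09, and no call among the 9 lncRNAs changed. HOXC11 was called lower with the block (-0.46). Depth limits the snoRNA rows, with a median of 31 counts per library over the 15 tested inside the host genes, and IGF2.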
